A study of Rattus norvegicus with 16 samples.

Results

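The miR-221 and miR-222 cluster was followed as all mature microRNAs (miRNAs) whose names in the count tables are rno-miR-221 or rno-miR-222, in both arms of their hairpin precursors. The rule gave 4 of the 722 miRNAs listed: rno-miR-221-3p, rno-miR-221-5p, rno-miR-222-3p and rno-miR-222-5p, written below without the species prefix. Small RNA libraries had been sequenced from 2 brain regions of 60 day old rats of 2 lines, the high responders and the low responders, lines selectively bred for how much or how little the rats move about in an unfamiliar arena. The 4 groups were dorsal raphe of low responders, dorsal raphe of high responders, amygdala of low responders and amygdala of high responders, with 4 libraries each and 16 in all. The dorsal raphe is a main source of serotonin neurons, and the amygdala is involved in fear and emotion. No treatment is named for any group, and nothing in the labels tells separate rats from pools, so the p-values reflect only how much these samples vary, which may be technical. Nor do the labels tell whether both regions came from the same rats. The main region tests treated all libraries as independent.

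A hairpin precursor is cut into a duplex of 2 short strands, the 5p arm and the 3p arm, one of which is usually loaded into Argonaute while the other is degraded. A loaded miRNA represses messenger RNAs that pair with its seed, bases 2 to 8. miR-221 and miR-222 are encoded side by side on the X chromosome and are made from one primary transcript. They are known for repressing the cell cycle inhibitor p27 (Cdkn1b) and the receptor Kit, for roles in endothelium and vascular smooth muscle, and, in neuron-like PC12 cells, for induction by nerve growth factor through the ERK pathway.

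The mature sequences show which members can share targets, and all 4 were found in RefSeq (build GRCr8, X chromosome, plus strand). Capitals mark the seed.
miR-221-3p: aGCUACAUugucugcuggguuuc
miR-222-3p: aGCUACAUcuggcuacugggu
miR-221-5p: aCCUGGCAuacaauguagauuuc
miR-222-5p: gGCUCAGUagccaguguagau
The 3p arms of both hairpins carry the same seed, GCUACAU, and are identical over their first 8 bases. Aligned over their whole length they share 18 bases. Of the 722 miRNAs listed, 644 had a RefSeq sequence, and among these no miRNA outside the cluster had this seed. The 5p arms had seeds of their own, CCUGGCA and GCUCAGU, which no other listed miRNA with a sequence shared.

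The hairpins are given to show the arms within one precursor, with the mature arms in capitals. Mir222 lies at chrX:6022621-6022723 and Mir221 at chrX:6023182-6023290, with 458 bases between them, and 2 long non-coding RNA genes of RefSeq span both.
Mir222: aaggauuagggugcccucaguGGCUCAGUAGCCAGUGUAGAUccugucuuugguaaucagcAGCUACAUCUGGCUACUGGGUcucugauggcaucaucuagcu
Mir221: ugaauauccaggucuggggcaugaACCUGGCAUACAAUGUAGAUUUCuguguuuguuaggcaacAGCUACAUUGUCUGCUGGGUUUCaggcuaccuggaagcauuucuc

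The libraries held 1741167 to 8134915 counts. The 2 that deviated most from their group means are called below the libraries that stood apart. Over all miRNAs tested, the root mean square deviation from the group mean was 1.03 on the log2 scale in dorsal raphe replicate 4 of the low responders and 0.968 in amygdala replicate 1 of the high responders, against 0.285 to 0.880 in the others. Both are the shallowest libraries of their groups, with 2096188 and 1741167 counts. High responder amygdala replicate 4 had the deviation of 0.880, so replicate 1 was only slightly the most deviant of that group. Levels are counts per 1000000 (CPM) scaled by the trimmed mean of M values (TMM). The TMM factor of low responder dorsal raphe replicate 4 was 0.596, which raises its scaled levels. Of the markers that check the tissue labels, the Hox cluster miRNAs of the hindbrain summed to 370.4 to 472.0 CPM in 7 dorsal raphe libraries and to 27.5 to 156.0 CPM in amygdala, without overlap. Low responder dorsal raphe replicate 4 stood at 3931.9 CPM. On the TMM scale the same library had the highest raphe sums of oligodendrocyte, vascular, neuron and choroid plexus miRNAs and the lowest of erythrocyte miRNAs. Their part in its values of the cluster was not tested.

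Together the 4 members made up 0.456% ± 0.157 of the counts of an amygdala library and 0.0771% ± 0.0205 of a dorsal raphe library (SD, n = 8 each). The 3p arms of both hairpins held most of these counts, 92.4% ± 1.77 in amygdala and 89.5% ± 4.42 in dorsal raphe. By mean CPM over the region, miR-221-3p ranked 57th of 639 miRNAs in amygdala and 171st in dorsal raphe, and miR-222-3p 63rd and 164th. miR-221-5p ranked 163rd in amygdala and 268th in dorsal raphe, and miR-222-5p, the rarest arm, 389th and 483rd. In bulk tissue, fewer cells that make a miRNA and less of it per cell cannot be told apart.

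miR-222-3p had a coefficient of variation of 11% to 28.2% within groups. Its levels in dorsal raphe were 437.3, 394.1, 398.0 and 496.6 CPM in low responder replicates 1 to 4 and 285.2, 284.2, 323.7 and 394.4 CPM in high responders. In amygdala they were 1720.9, 1853.1, 2322.1 and 2285.8 CPM in low responders and 1464.5, 1289.9, 2038.4 and 2381.8 CPM in high responders. Every amygdala library lay above every raphe library, including the 2 that stood apart. The level rose 5.14-fold in amygdala, averaged over the lines (log2 fold change 2.36 with an SE of 0.19; adjusted p = 7.19e-08 by the quasi-likelihood test of edgeR, as for all adjusted p of levels below).

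miR-221-3p, the partner with the same seed, had one of 17.9% to 72.7%. Dorsal raphe libraries held 561.2, 368.3, 335.6 and 117.7 CPM in low responder replicates 1 to 4 and 218.0, 294.5, 240.7 and 322.5 CPM in high responders. Amygdala libraries held 1756.7, 2612.2, 3623.6 and 4382.8 CPM in low responders and 457.3, 898.1, 2206.4 and 3102.7 CPM in high responders. High responder amygdala replicate 1, one of the libraries that stood apart, lay below low responder dorsal raphe replicate 1, so the regions overlapped over all 16 libraries, though not within either line. The averaged rise was 7.44-fold (log2 fold change 2.90 with an SE of 0.38; adjusted p = 2.6e-05). This was the 4th highest fold change of the 639 miRNAs, ahead of miR-222-3p at the 7th, with the larger SE of the pair.

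miR-221-5p, the minor arm of the same hairpin, followed the region as well. Its levels were 68.9, 65.8, 68.3 and 149.0 CPM in low responder dorsal raphe and 61.4, 61.3, 48.4 and 80.3 CPM in high responder dorsal raphe. In amygdala it stood at 366.1, 334.4, 474.7 and 343.0 CPM in low responders and at 178.9, 209.6, 294.2 and 326.1 CPM in high responders. The regions did not overlap, and the raphe library nearest to amygdala was low responder replicate 4. The arm rose 4.18-fold (log2 fold change 2.06 with an SE of 0.23; adjusted p = 3.05e-06).

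miR-222-5p was close to the limit of detection in dorsal raphe, with 7 to 16 counts a library, against 30 to 79 counts in amygdala. That is 2.50, 2.04, 1.76 and 12.8 CPM in low responder dorsal raphe and 3.92, 1.45, 2.47 and 1.8 CPM in high responder dorsal raphe. Amygdala libraries stood at 14.7, 9.37, 12.4 and 10.4 CPM in low responders and at 16, 15.9, 11.1 and 7.06 CPM in high responders. The regions overlapped through low responder dorsal raphe replicate 4, whose level lay within the range of the amygdala libraries. The arm rose 3.91-fold (log2 fold change 1.97 with an SE of 0.38; adjusted p = 0.000934).

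**Figure D1:**
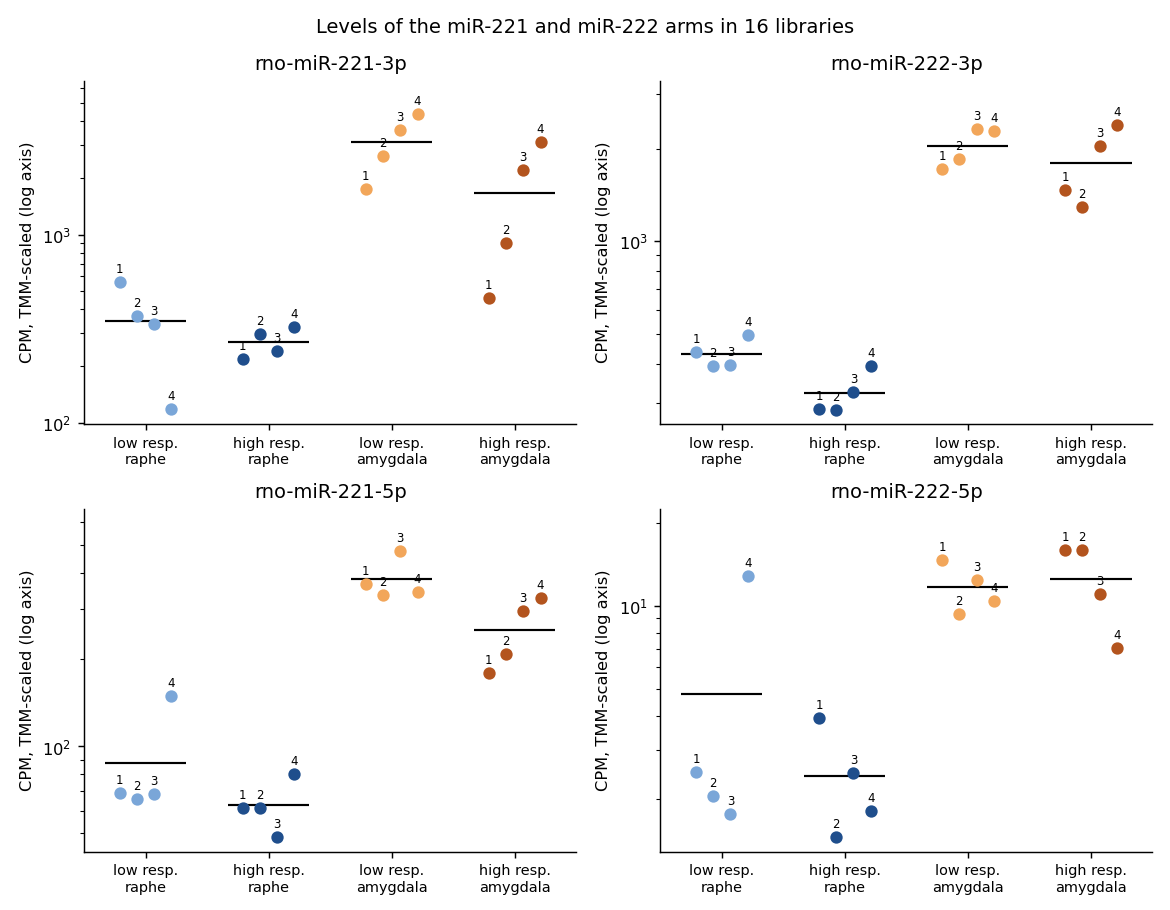
TMM-scaled CPM (log axes) of the 4 members in each library, by line and region; points are libraries numbered by replicate and lines are arithmetic means of 4 libraries. All amygdala libraries lie above all raphe libraries for miR-222-3p and miR-221-5p, while low responder raphe replicate 4 is low for miR-221-3p and high for both 5p arms.

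Averaged over the lines, all 4 members passed the test as higher in amygdala, where 9.39% of the 639 miRNAs tested did. Regions without overlap over all 16 libraries were seen for 2 of the 4, miR-222-3p and miR-221-5p, where 1.88% of all miRNAs lay higher in amygdala without overlap. The median log2 fold change was -0.082 over all miRNAs tested and 1.97 to 2.90 for the members. All 4 were tested because each reached the count filter in at least 5 of 8 libraries of either region, so none passed it through amygdala alone. The rises held with every library left out in turn: the log2 fold change ranged from 2.34 to 2.54 for miR-222-3p, from 2.74 to 3.16 for miR-221-3p, from 2.04 to 2.28 for miR-221-5p and from 1.85 to 2.43 for miR-222-5p. Without both libraries that stood apart they were 2.62, 3.08, 2.50 and 2.54, with adjusted p of at most 3.81e-06. Of all miRNAs edgeR called 60 higher and 95 lower. The balance depended on the setting, with 100 and 103 in DESeq2, 75 and 85 with relative log expression factors, 64 and 113 with library totals, 121 and 97 without high responder amygdala replicate 4, 106 and 106 without low responder dorsal raphe replicate 4, and 128 and 84 without both libraries that stood apart.

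In low responders alone, 3 of the 4 members were higher in amygdala, where 3.6% of all miRNAs were. miR-221-3p rose 8.93-fold (3.16 on the log2 scale, SE 0.55, adjusted p = 0.000809), miR-222-3p 4.74-fold (2.25, SE 0.26, adjusted p = 2.99e-05) and miR-221-5p 4.34-fold (2.12, SE 0.32, adjusted p = 0.000292). These 3 also had no overlap between the regions, as had 6.1% of all miRNAs in this direction. miR-222-5p differed by 1.56 (SE 0.54, adjusted p = 0.0597). Without low responder dorsal raphe replicate 4 its log2 fold change was 2.56 (adjusted p = 0.000315), and it also passed in DESeq2 (1.68, adjusted p = 0.0133). edgeR called 23 miRNAs higher and 67 lower in this comparison, against 34 and 54 when levels were scaled by library totals, 40 and 69 in DESeq2, 43 and 41 without low responder dorsal raphe replicate 4, and 75 and 54 without both libraries that stood apart.

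In high responders all 4 members were higher in amygdala, where 6.57% of all miRNAs were, and all 4 had no overlap, as had 11.1% in this direction. The rises were 6.20-fold for miR-221-3p (2.63 on the log2 scale, SE 0.54, adjusted p = 0.00262), 5.57-fold for miR-222-3p (2.48, SE 0.26, adjusted p = 8.09e-06), 4.02-fold for miR-221-5p (2.01, SE 0.32, adjusted p = 0.000446) and 5.21-fold for miR-222-5p (2.38, SE 0.54, adjusted p = 0.00634). Here edgeR called 42 higher and 42 lower, against 40 and 71 with library totals, 86 and 63 with the replicate block, 72 and 56 without high responder amygdala replicate 4, and 86 and 52 without both libraries that stood apart.

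The region difference was not shown to depend on the line for any member. The interaction, the log2 fold change in high responders less that in low responders, was -0.53 (SE 0.71, adjusted p = 0.862) for miR-221-3p, 0.23 (SE 0.35, adjusted p = 0.882) for miR-222-3p, -0.11 (SE 0.44, adjusted p = 0.983) for miR-221-5p and 0.82 (SE 0.75, adjusted p = 0.754) for miR-222-5p. edgeR called 0% of the 639 miRNAs here (81 had an unadjusted p under 0.05). DESeq2 called 22, none of them a member. For miR-222-3p the sign turned with library totals as the scaling (-0.12), and for miR-222-5p without both libraries that stood apart (-0.31).

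**Figure D2:**
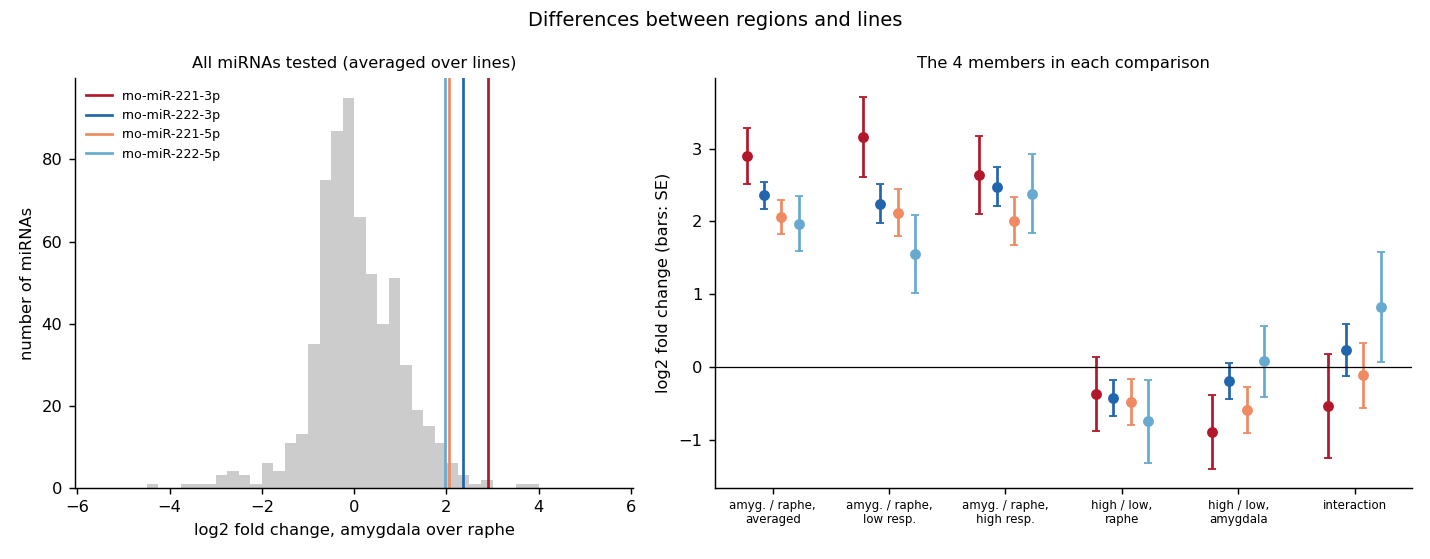
Left, histogram of the log2 fold changes of all 639 miRNAs between amygdala and dorsal raphe, averaged over the lines, with the 4 members as vertical lines. Right, log2 fold change ± SE of each member in the 6 comparisons: the 3 region comparisons lie between 1.56 and 3.16, and the line comparisons and the interaction between -0.89 and 0.82.

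Between the lines, the members did not pass the test in either region. In dorsal raphe all 4 stood lower in high responders, with log2 fold changes of -0.36 (SE 0.51) for miR-221-3p, -0.42 (SE 0.25) for miR-222-3p, -0.48 (SE 0.31) for miR-221-5p and -0.74 (SE 0.57) for miR-222-5p, and adjusted p from 0.691 to 0.970. The last 2 rest on low responder replicate 4: without it they were 0.024 and 0.29. The line ranges overlapped for all 4, where 3.6% of all miRNAs lay lower in high responders without overlap. edgeR called 0% of all miRNAs (70 had an unadjusted p under 0.05), as did DESeq2, with 0 calls.

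In amygdala, miR-221-5p was the member whose lines did not overlap: 334.4 to 474.7 CPM in low responders against 178.9 to 326.1 CPM in high responders (a log2 difference of -0.59, SE 0.31, adjusted p = 0.539). Lower without overlap in high responders were 3.76% of all miRNAs. miR-221-3p averaged 1666.1 ± 1212.0 CPM in high responders and 3093.8 ± 1149.2 CPM in low responders (SD, n = 4 each; -0.89, SE 0.51, adjusted p = 0.599), with overlapping ranges. miR-222-3p averaged 1793.7 ± 506.0 and 2045.5 ± 303.7 CPM (-0.19, SE 0.25, adjusted p = 0.774), and miR-222-5p 12.5 ± 4.29 and 11.7 ± 2.33 CPM (0.08, SE 0.49, adjusted p = 0.950). The value of miR-221-3p did not pass with any single library left out either; it ran from -1.41 without high responder replicate 4 to -0.61 without high responder replicate 1. Replicate numbers were used to pair amygdala libraries because same-numbered libraries deviated together in these same data, and no label explains the numbers. The pairs are thus not independent of these values. Paired so, the high responder library was the lower one in 4 of 4 pairs for miR-221-3p and for miR-221-5p. It was the lower one in 3 of 4 for miR-222-3p and in 2 of 4 for miR-222-5p. With the replicate number as a block, edgeR gave -1.19 (unadjusted p = 0.00294, adjusted p = 0.116) for miR-221-3p, against an unadjusted p of 0.0966 without the block, and -0.63 (unadjusted p = 0.0257, adjusted p = 0.199) for miR-221-5p. edgeR called 0% of all miRNAs (65 had an unadjusted p under 0.05). DESeq2 called 19, none of them a member.

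By mean level the groups ran in the same order for miR-221-3p, miR-222-3p and miR-221-5p: low responder amygdala, high responder amygdala, low responder dorsal raphe, high responder dorsal raphe. The step between the lines in a region did not pass the test for any of these 3. For miR-222-3p and miR-221-5p the regions did not overlap over all 16 libraries, as for 1.88% of all miRNAs in this direction. It follows that high responder amygdala and low responder dorsal raphe did not overlap for them, and the share of all miRNAs for these neighbouring groups was not computed. For miR-221-3p these neighbours overlapped, at 457.3 to 3102.7 and 117.7 to 561.2 CPM. miR-222-5p had both amygdala groups in reverse order, which did not differ beyond their spread.

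The arms of a hairpin are counted in the same library, so their ratio does not depend on scaling. In dorsal raphe, the counts of miR-221-3p for each count of miR-221-5p were 8.14, 5.59, 4.91 and 0.791 in low responder replicates 1 to 4 and 3.55, 4.80, 4.96 and 4.01 in high responders. In amygdala they were 4.80, 7.81, 7.63 and 12.8 in low responders and 2.55, 4.28, 7.50 and 9.51 in high responders. The 3p arm was the major one in 15 of 16 libraries. The exception was low responder dorsal raphe replicate 4, with 147 counts of the 3p arm and 186 of the 5p arm. For miR-222 the dominance of the 3p arm was far stronger, with a median of 184.4 counts for each count of the 5p arm in amygdala and 176.5 in dorsal raphe, from 37.6 in low responder dorsal raphe replicate 4 to 331.9 in high responder amygdala replicate 4. The arms with the shared seed are thus the abundant ones of both hairpins.

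No difference in an arm ratio passed the test. Averaged over the lines, the log2 of the 3p to 5p ratio of miR-221 was 0.70 higher in amygdala (SE 0.44, adjusted p = 0.351 in limma over the 179 hairpins with both arms), and that of miR-222 was 0.28 higher (SE 0.41, adjusted p = 0.637). Of these hairpins 5.59% had a ratio that differed between the regions. Within the lines the miR-221 difference was 1.09 (SE 0.62, adjusted p = 0.505) in low responders and 0.30 (SE 0.62, adjusted p = 0.732) in high responders. Without both libraries that stood apart the lines changed order, with 0.36 in low and 0.65 in high responders, and the high responder value was 0.018 with amygdala replicate 4 of that line left out. Of all hairpins, 1.12% differed in low responders and 2.79% in high responders. Between the lines the miR-221 difference was 0.23 (SE 0.62, adjusted p = 0.973) in dorsal raphe and -0.56 (SE 0.62, adjusted p = 0.634) in amygdala, where 0% and 3.35% of the hairpins passed. Without low responder dorsal raphe replicate 4 the difference in dorsal raphe was -0.50, and the hairpins called between the regions rose from 10 to 55, miR-221 and miR-222 not among them.

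miR-221-3p and miR-222-3p, the mates with one seed, were counted in ratios from 0.238 to 1.92. The counts of miR-221-3p for each count of miR-222-3p were 1.28, 0.935, 0.843 and 0.238 in low responder dorsal raphe and 0.764, 1.04, 0.744 and 0.818 in high responder dorsal raphe. In amygdala the ratio was 1.02, 1.41, 1.56 and 1.92 in low responders and 0.312, 0.696, 1.08 and 1.3 in high responders. All 4 low responder amygdala libraries had more miR-221-3p than miR-222-3p, and the lowest ratios were those of both libraries that stood apart. The log2 ratio was 1.04 higher in amygdala than in dorsal raphe of low responders (exact two-sided permutation p = 0.0571, n = 4 each, the smallest possible being 0.0286; adjusted p = 0.214 over 5 comparisons), and 0.52 without low responder dorsal raphe replicate 4. Its difference between high responder and low responder amygdala was -0.95 (exact permutation p = 0.0857, adjusted p = 0.214), and -0.54 without high responder replicate 1. Paired by replicate number, the high responder library was lower in 4 of 4 pairs (exact permutation within pairs, p = 0.125, adjusted p = 0.625). All 4 pairs ran in the same direction, so this p is the smallest that 4 pairs can give. The paired test could therefore not pass whatever the values, and it does not decide whether the lines differ. The pairs were also chosen from these same data. Averaged over the lines, the region difference was 0.44 (exact permutation p = 0.319, adjusted p = 0.531).

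**Figure D3:**
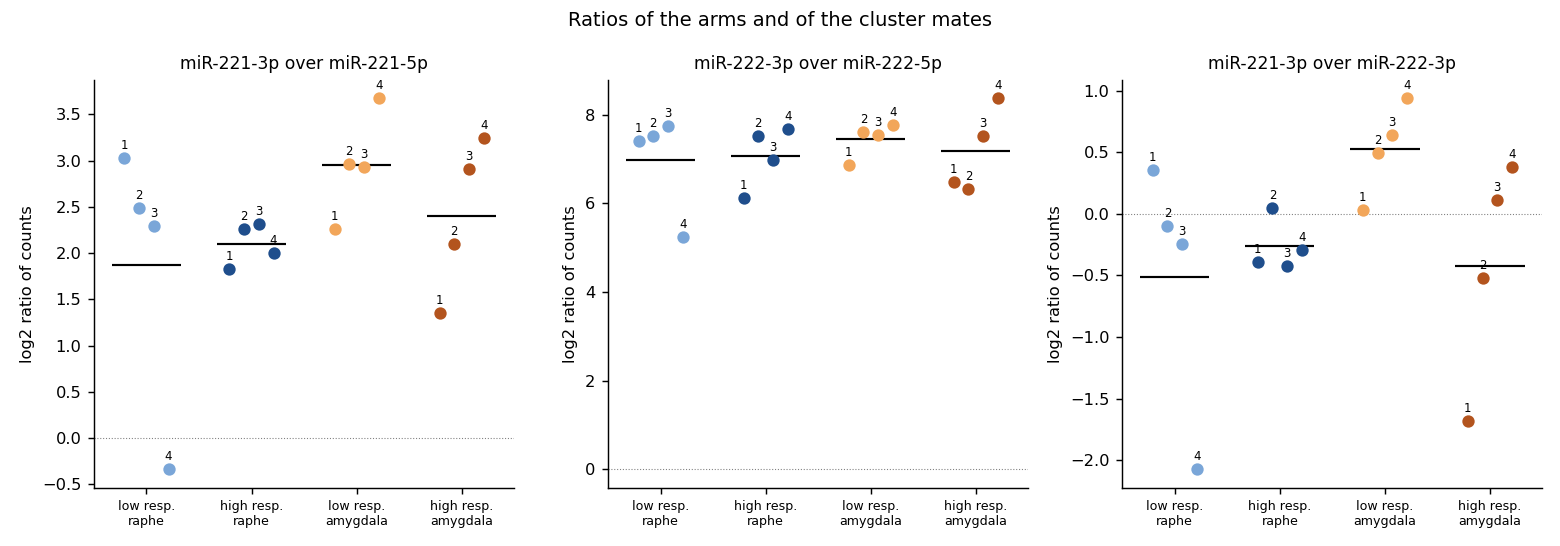
log2 ratios of counts in each library for the arms of miR-221, the arms of miR-222 and the 2 miRNAs with the shared seed; points are libraries numbered by replicate, bars are group means, and the dotted line marks equal counts. Only low responder raphe replicate 4 lies below the line for miR-221-3p over miR-221-5p, at 0.791 counts for each count.

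**Figure D4:**
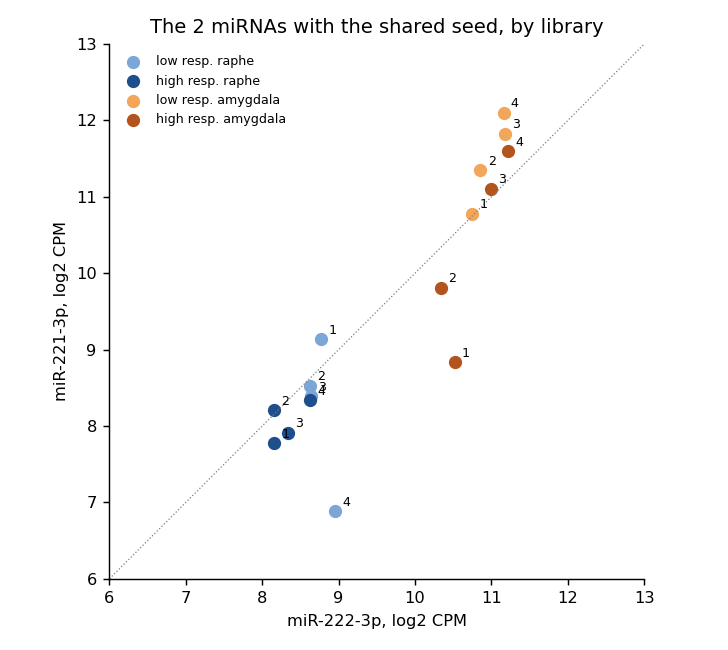
log2 CPM of miR-221-3p against miR-222-3p in the 16 libraries, with a dotted line of equality and replicate numbers. The points farthest below the line are raphe replicate 4 of the low responders (0.238 counts of miR-221-3p for each count of miR-222-3p) and amygdala replicate 1 of the high responders (0.312).

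Within a region, the libraries' deviations from their line means were compared between members, which share library and depth. In amygdala, miR-221-3p and miR-222-3p had the highest correlation (Pearson r = 0.887, exact permutation p = 0.0382, adjusted p = 0.130 over 6 relations; Spearman rho = 0.905, exact permutation p = 0.0521, adjusted p = 0.240; n = 8), and r was 0.964 with the 2 most deviant libraries dropped. None of the 6 relations passed the adjustment. The other amygdala pairs had r = 0.828 for both arms of miR-221 (exact permutation p = 0.0764, rho = 0.762, exact permutation p = 0.148) and r = 0.815 for miR-221-5p with miR-222-3p (exact permutation p = 0.104, rho = 0.881, exact permutation p = 0.0799). Without their 2 most deviant libraries these fell to 0.556 and 0.648. With library totals, r in amygdala was 0.749 for miR-221-3p with miR-222-3p, 0.5785 for the arms of miR-221 and 0.634 for miR-221-5p with miR-222-3p. In dorsal raphe the arms of miR-221 had r = -0.716 (exact permutation p = 0.219; rho = -0.381, exact permutation p = 0.384), which became 0.645 without low responder replicates 1 and 4, so it rests on those libraries. In the same region miR-221-3p with miR-222-3p had r = -0.26 (exact permutation p = 0.543; rho = 0.119, exact permutation p = 0.755) and 0.582 without them, and miR-221-5p with miR-222-3p had r = 0.677 (exact permutation p = 0.0434, adjusted p = 0.130; rho = 0.333, exact permutation p = 0.465), which turned to -0.702 without the 2 most deviant libraries.

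Library depth moved with the levels of miR-221-3p and with all 3 ratios. Within groups, log2 CPM of miR-221-3p rose with the log2 of the library total (Pearson r = 0.845, permutation p = 0.00154, adjusted p = 0.00359; Spearman rho = 0.815, permutation p = 0.00264, adjusted p = 0.00616; n = 16), and r was 0.791 once the pair of libraries whose depth deviated most from their group (high responder amygdala replicates 1 and 3) was dropped. Of all miRNAs tested, 8.76% had an r as high or higher. miR-222-3p, with the same seed and from the same transcript, had r = 0.399 (permutation p = 0.261, adjusted p = 0.305, rho = 0.444, permutation p = 0.182) and miR-221-5p r = -0.119 (permutation p = 0.712, rho = -0.0824, permutation p = 0.797). miR-222-5p fell with depth (r = -0.709, permutation p = 0.00772, adjusted p = 0.0108, rho = -0.618, permutation p = 0.0236, adjusted p = 0.0413, and r = -0.795 without that pair). Of all miRNAs tested, 83.7% had an r as high as that of miR-222-5p or higher, and the median r over all was -0.113.

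The ratio of miR-221-3p to miR-221-5p rose with depth (r = 0.835, permutation p = 0.00013, adjusted p = 0.00091; rho = 0.900, permutation p = 9e-05, adjusted p = 0.00063; r = 0.848 without that pair). So did the ratio of miR-222-3p to miR-222-5p (r = 0.778, permutation p = 0.00714, adjusted p = 0.0108; rho = 0.606, permutation p = 0.0341, adjusted p = 0.0477; r = 0.823 without that pair) and that of miR-221-3p to miR-222-3p (r = 0.827, permutation p = 0.00075, adjusted p = 0.00262; rho = 0.794, permutation p = 0.00225, adjusted p = 0.00616; r = 0.786 without that pair). These 7 relations were computed after the values of the members had been seen, and the ratios of other hairpins were not set against depth. Library totals overlapped between the regions, at 2096188 to 5917144 counts in dorsal raphe and 1741167 to 8134915 in amygdala. Within amygdala they ran from 1741167 to 6949748 counts in high responders and from 3742902 to 8134915 in low responders. The part of depth in the differences between regions and between lines was not tested.

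**Figure D5:**
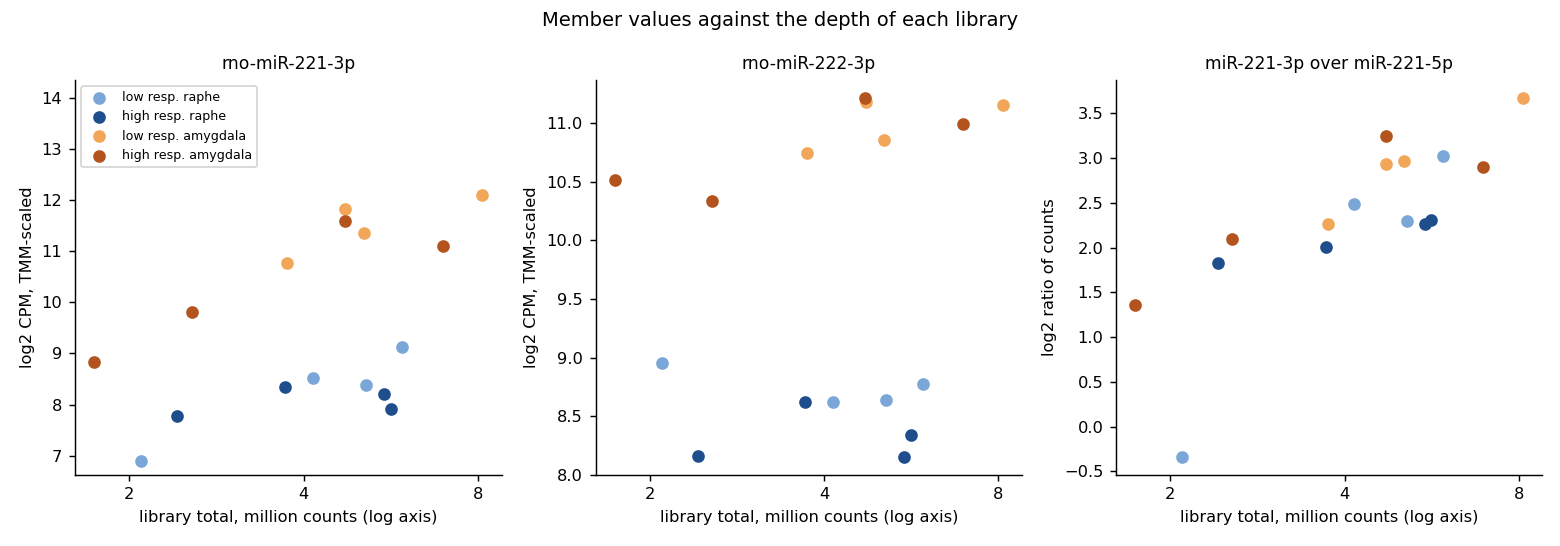
log2 CPM of miR-221-3p and miR-222-3p and the log2 ratio of the miR-221 arms against the library total (log axis); points are the 16 libraries, coloured by group. miR-221-3p (r = 0.845 within groups) and the arm ratio (r = 0.835) rise with depth. For miR-222-3p (r = 0.399) every amygdala library lies above every raphe library, and the part of depth was not tested.

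Marker miRNAs of cell types known to carry the cluster, or that could differ between the dissections, were set beside the members. None of the 6 vascular miRNAs passed the test between the regions, and all 6 had lower means in amygdala (median log2 fold change -0.60, against -0.082 over all miRNAs). They include miR-126a-3p of endothelium (-0.63, SE 0.23, adjusted p = 0.0503) and miR-145-5p of smooth muscle (-0.67, SE 0.27, adjusted p = 0.0740). Their summed level was 33248.0 to 49939.2 CPM in amygdala and 43996.5 to 61021.4 CPM in dorsal raphe, apart from low responder replicate 4 at 119375.1 CPM. Of all miRNAs, 9.39% passed as higher in amygdala and 14.9% as lower. The microglia and leukocyte list had 1 of 5 lower, miR-150-5p (-0.71, adjusted p = 0.0230), the erythrocyte list 0 of 3 past the test, and the oligodendrocyte list 3 of 4 lower: miR-338-3p (-1.18, adjusted p = 0.00762), miR-219-5p (-0.87, adjusted p = 0.0225) and miR-219-2-3p (-0.89, adjusted p = 0.0448). The summed oligodendrocyte level was 4953.7 to 13589.4 CPM in amygdala and 10263.8 to 16361.8 CPM in dorsal raphe, apart from low responder replicate 4 at 40514.4 CPM, the summed microglia and leukocyte level 423.2 to 1617.1 and 1110.3 to 1652.8 CPM, and the summed erythrocyte level 68.1 to 348.0 and 85.7 to 244.7 CPM. The Hox miRNAs had 2 of 4 lower, miR-10b-5p (-4.30, adjusted p = 3.88e-05) and miR-10a-5p (-2.31, adjusted p = 0.00126). miR-196a-5p (0.51, adjusted p = 0.374) leaned the other way, and miR-10a-3p (-0.22, adjusted p = 0.763) did not pass either.

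The choroid plexus list had 5 of 5 higher in the averaged comparison, where 9.39% of all miRNAs were, among them miR-1298 (4.00, SE 0.54, adjusted p = 2.69e-05), miR-204-5p (1.79, SE 0.35, adjusted p = 0.00101), miR-211-5p (1.68, adjusted p = 0.00113) and miR-204-3p (1.02, adjusted p = 0.0128). Within high responders 5 of 5 were higher (median log2 fold change 2.76) and within low responders 1 of 5 (0.82), against 6.57% and 3.6% of all miRNAs. Its summed level was 2480.0 to 7026.7 CPM in dorsal raphe and 2096.2 to 49396.7 CPM in amygdala. In low responder amygdala replicate 4 it stood at 2096.2 CPM, below every raphe library. That library, the deepest at 8134915 counts, held miR-221-3p at 4382.8 CPM, the highest level of that miRNA, and miR-222-3p at 2285.8 CPM. Replicates 1 to 3 of low responder amygdala had choroid plexus sums of 11170.8, 47843.7 and 29862.6 CPM, with miR-221-3p at 1756.7, 2612.2 and 3623.6 CPM. Within groups miR-221-3p rose with depth (r = 0.845). Of the 8 neuron miRNAs 1 was higher, miR-128-3p (2.23, SE 0.22, adjusted p = 1.08e-06), and 0 lower, a share near the 9.39% of all miRNAs called higher. The summed neuron list was 210549.2 to 276341.3 CPM in amygdala and 145505.4 to 193592.1 CPM in 7 dorsal raphe libraries, without overlap. Low responder dorsal raphe replicate 4 stood at 264250.1 CPM, a value raised by its TMM factor of 0.596. Sums scaled by library totals were not computed. Within the sum, miR-128-3p averaged 78689.6 CPM in amygdala and 16519.4 CPM in dorsal raphe. The median log2 fold change of the list was 0.12. Without passing the test, miR-137-3p (0.92, adjusted p = 0.0537), miR-138-5p (0.37), miR-9a-5p (0.17) and miR-124-5p (0.08) leaned higher in amygdala. miR-9a-3p (-0.74), miR-124-3p (-0.47) and miR-153-3p (-0.28) leaned lower, also without passing it. The part of these cell types in the rise of the cluster was not tested.

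Growth factor and activity pathways of neurons induce other miRNAs, and 7 of them were followed. Between the regions 4 of 7 were higher in amygdala and 2 lower (median log2 fold change 1.16), against 9.39% and 14.9% of all miRNAs. The CREB targets miR-132-3p (1.73, SE 0.18, adjusted p = 1.08e-06), miR-212-5p (1.61, SE 0.22, adjusted p = 2.69e-05), miR-132-5p (1.38, adjusted p = 0.00122) and miR-212-3p (1.16, adjusted p = 0.00141) were higher. miR-134-5p, which acts at dendritic spines (-1.41, SE 0.22, adjusted p = 0.000137), and miR-21-5p, an ERK-responsive miRNA (-0.65, SE 0.22, adjusted p = 0.0426), were lower. The list thus moved in both directions.

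The profile of each member over the 16 libraries was compared with all other miRNAs of at least 10 CPM by the root mean square difference of log2 CPM, after each profile was centred on its own mean. This is a description over libraries that share the region difference. The profile nearest to miR-222-3p was that of miR-221-5p (0.314), followed by miR-139-5p (0.343), miR-132-3p (0.353), miR-212-5p (0.477) and miR-128-3p (0.503), against a median of 1.44 over 406 candidates. miR-221-5p in turn had miR-222-3p first, then miR-132-3p (0.414), miR-212-5p (0.444), miR-139-3p (0.573) and miR-139-5p (0.603). The major arm of its own hairpin, miR-221-3p, was only 27th (0.893). miR-221-3p itself had miR-139-5p (0.739), miR-222-3p (0.760), miR-132-5p (0.848), miR-221-5p (0.893) and miR-132-3p (0.900) nearest. miR-222-5p had miR-128-2-5p (0.405), miR-139-3p (0.497), miR-128-3p (0.512), miR-212-5p (0.524) and miR-504 (0.548) nearest, with the 3p arm of its hairpin 12th (0.730).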

How the data were processed

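The deposited values are read counts for 722 mature rat miRNAs, in 1 table for each of the 16 libraries. Per the labels' protocols, RNA came from a miRNeasy kit and libraries from an Illumina small RNA protocol with size selection. Tools listed in the submitters' processing notes are cutadapt 1.3.1, Bowtie2 and bedtools 2.14.2, with no settings. For the genome build, the annotation and reads shared by several miRNAs, the choice made is not given in the sources used here.

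Counts were used as deposited. edgeR's filterByExpr (minimum count 10, minimum total 15) kept 639 miRNAs. edgeR 4.0.16 in R 4.3.3 fitted 1 mean per group with TMM factors, using robust quasi-likelihood tests, with Benjamini-Hochberg adjustment across the 639 and a threshold of 0.05. The SE is the log2 fold change divided by the square root of F. log2 CPM uses a prior count of 2. On the TMM scale, 3 counts stood for 0.396 to 2.40 CPM, which covers counting error only. Arm ratios, log2 of counts plus 0.5, were tested with limma 3.58.1 over the 179 hairpins with a mean of at least 10 counts in each arm, and single ratios by exact permutation. Fits were tested on simulated counts. Alternatives were DESeq2 1.42.0, limma-voom, other scalings, no filter, a replicate block and libraries left out.

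The members, lists and tests were chosen with earlier results of these data known. The rule gave 4 members, 1 more than had been planned (miR-222-5p), all treated alike. Always named were the members, miRNAs with a shared seed, the 5 nearest profiles and up to 4 called miRNAs of each marker list. Same-numbered libraries of both amygdala groups deviated together (correlations 0.688, 0.29, 0.212 and 0.509, all above 0.1), so the numbers were taken to pair them, although no label explains the numbers. In the other comparisons at least 1 correlation was not above 0.1. Between the regions of high responders the correlations were 0.675, -0.275, 0.353 and 0.531.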

Additional observations from a re-analysis of the deposited data

Results flagged for a closer look

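Low responder dorsal raphe replicate 4 lay far from the other 3 libraries of its group in 3 values of the cluster. Its log2 CPM of miR-221-5p was 7.22, against 6.05 to 6.11 in the others, and that of miR-222-5p was 3.73, against 1.14 to 1.56. Its log2 ratio of miR-222-3p to miR-222-5p was 5.23, against 7.41 to 7.74. In each case the gap to the nearest library, divided by the range of the group (0.944, 0.839 and 0.867), was above the limit of 0.829 for 4 libraries. Of the 28 groups of 4 values examined these 3 passed, all in 1 library, and chance passes about 1 in 20. Both levels depend on the TMM factor of that library: with library totals, an alternative chosen after seeing the data, the gap was 0.660 of the range for miR-221-5p and 0.725 for miR-222-5p, below the limit. The ratio does not depend on scaling.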

How the results depend on the processing

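The region rises of miR-221-3p, miR-221-5p and miR-222-3p kept their direction and their call in the averaged comparison and in each line under DESeq2, limma-voom, library totals, relative log expression factors, no filter, the replicate block, fits on 8 libraries (run for the single lines) and every library left out. In the replicate block the averaged log2 fold changes were 2.73, 2.09 and 2.35. The block changed no call of a member in any comparison. miR-222-5p in low responders (1.56, adjusted p = 0.0597) passed with DESeq2 (1.68), library totals (1.86), limma-voom (2.12), no filter (1.57), relative log expression factors (1.68) and without both shallow libraries (2.69); with 1 library left out it ran from 1.34 to 2.56, and passed in 8 of 16 such fits. Its line and interaction values, none of them called, changed sign: -0.071 in amygdala and 0.24 in dorsal raphe without both shallow libraries, -0.0053 in amygdala in limma-voom, and -0.31 in the interaction. With 1 library left out they ran from -0.059 to 0.31 in amygdala, from -1.03 to 0.29 in dorsal raphe and from -0.26 to 1.08 in the interaction. That of miR-222-3p in the interaction was -0.12 with library totals and ran from -0.041 to 0.25 with 1 library left out, and that of miR-221-5p between the lines in dorsal raphe ran from -0.54 to 0.024.

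Of the ratios, the arms of miR-221 between the lines in dorsal raphe stood at -0.50 without both shallow libraries (-0.50 to 0.62 with 1 left out). miR-221-3p over miR-222-3p stood at -0.27 in dorsal raphe between the lines and at 0.25 between the regions of high responders (-0.27 to 0.54 and -0.43 to 0.25 with 1 left out). The arms of miR-222 between the regions ran from -0.0075 to 0.42. In dorsal raphe the correlation of miR-221-3p with miR-221-5p was 0.459 without both shallow libraries and 0.645 without the 2 farthest libraries. That of miR-221-3p with miR-222-3p was 0.580, 0.582 and, with library totals, 0.812. That of miR-221-5p with miR-222-3p was -0.702 without the 2 farthest and 0.041 with library totals.

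Differences of miR-221-3p over miR-222-3p ran from 0.52 to 1.33 between the regions of low responders and from -1.22 to -0.54 between the lines in amygdala with 1 library left out, and those of the miR-221 arms from 0.36 to 1.48 in low and from 0.018 to 0.65 in high responders.

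Counts of calls moved more. Between the regions, averaged over the lines, 155 miRNAs were called, 212 without both shallow libraries, 203 in DESeq2 and 114 to 218 with 1 library left out. Between the regions of high responders 136 miRNAs were called in DESeq2, 138 without both shallow libraries and 149 with the replicate block (61 to 128 with 1 library left out, the most without high responder amygdala replicate 4). In low responders 21 were called with the block, and 47 to 94 with 1 library left out, the fewest without low responder amygdala replicate 3. Between the lines in amygdala 19 were called in DESeq2, 9 without both shallow libraries and 2 with library totals (0 to 2 with 1 left out, 2 without low responder dorsal raphe replicate 4), and in the interaction 22 in DESeq2, 3 without both shallow libraries and 1 with no filter (0 to 1 with 1 left out, 1 without high responder amygdala replicate 4 or low responder dorsal raphe replicate 1). Hairpins with a called arm ratio between the regions numbered 62 without both shallow libraries and 8 to 55 with 1 left out, 55 without low responder dorsal raphe replicate 4 and 16 without high responder amygdala replicate 4. Library totals moved the median log2 fold change of all miRNAs by 0.14 in low responders, -0.19 in high responders, 0.20 between the lines in dorsal raphe and -0.33 in the interaction. The cause of these changes was not tested. Depth limits miR-222-5p most, with 7 to 16 counts in raphe libraries.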
